A study of Homo sapiens with 6 samples.

Results

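The genes described here encode the subunits of the 5 complexes of oxidative phosphorylation in SW1353 cells, a human chondrosarcoma line often used in place of chondrocytes. They were chosen by name alone: every probe whose annotated symbol begins with NDUFA, NDUFB, NDUFC, NDUFS, NDUFV, UQCR, COX4 to COX8, ATP5 or SDHA to SDHD, with detection (p under 0.01) on 3 or more of the 6 arrays. The rule named 146 probes of 92 genes, and 111 probes of 81 genes were kept, of 9078 genes tested in all. The 81 genes hold 67 subunits, 10 assembly factors, 3 pseudogenes and the inhibitor ATP5IF1. By complex they number 35, 7, 9, 12 and 18 for complexes I to V. The 11 genes below the limit were COX4I2, COX6A2, COX6B2, COX8C, NDUFA5, NDUFB1, NDUFB4, NDUFC2, NDUFS6, SDHAP3 and SDHAP4. At the edge of the rule, COX7A1 was detected on 3 arrays and kept, while a second UQCRB probe and 1 SDHAP1 probe, each detected on 2 arrays, were left out. SDHB, UQCRFS1, COX7A2L, NDUFA4 and NDUFA4L2 had no probe named for them in the annotation used and are not analysed here. Both groups received the same handling: one cell line, held without serum for about 20 h and harvested after a further 6 h. The 3 control samples had no cytokine, and the 3 IL-1 samples had interleukin-1 alpha at 0.5 ng/ml for those 6 h. The titles of the samples are of 2 kinds, called title series below. Allstars holds replicates 1 and 2 of each group, Sample holds replicate 3 of each, and the labels do not say what sets them apart.

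Complexes I to IV pass electrons from NADH and succinate to oxygen and, except for complex II, pump protons across the inner mitochondrial membrane. Complex V, the ATP synthase, lets the protons flow back and makes ATP. A few subunits are encoded by mitochondrial DNA and the rest, measured here, by the nucleus. Chondrocytes live in tissue with little oxygen and are known to draw much of their ATP from glycolysis. IL-1 is an inflammatory cytokine that signals through NF-kB and is used to model cartilage breakdown.

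Nuclear genes of this kind are known targets of NRF1 and of ETS factors such as GABP, so the stretches just before 5 start sites are shown. They belong to the gene that passed the test, NDUFS3, and to the next members by p, NDUFA8 and NDUFA12. The others are NDUFA9, the member with the largest difference in the opposite direction, and the complex II anchor SDHD. Each runs 5′ to 3′ over the 100 bases before the annotated start (RefSeq, GRCh38.p14). Capitals mark a match on either strand to CCGGAAG (ETS, in NDUFS3 and SDHD) or to the NRF1 motif (in NDUFA9). NDUFA8 and NDUFA12 have no match in these 100 bases, and their NRF1 letters lie elsewhere in the longer window used below.
NDUFS3 (chr11:47578974-47579073, plus strand): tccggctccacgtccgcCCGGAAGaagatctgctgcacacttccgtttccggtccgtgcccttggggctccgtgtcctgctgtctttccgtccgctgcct
NDUFA8 (chr9:122159780-122159879, minus strand): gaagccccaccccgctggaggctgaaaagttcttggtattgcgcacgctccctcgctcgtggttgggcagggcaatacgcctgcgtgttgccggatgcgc
NDUFA12 (chr12:95003698-95003797, minus strand): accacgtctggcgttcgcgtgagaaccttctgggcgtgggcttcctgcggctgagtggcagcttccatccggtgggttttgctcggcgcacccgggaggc
NDUFA9 (chr12:4649014-4649113, plus strand): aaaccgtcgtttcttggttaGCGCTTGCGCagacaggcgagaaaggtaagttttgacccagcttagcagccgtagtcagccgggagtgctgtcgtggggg
SDHD (chr11:112086773-112086872, plus strand): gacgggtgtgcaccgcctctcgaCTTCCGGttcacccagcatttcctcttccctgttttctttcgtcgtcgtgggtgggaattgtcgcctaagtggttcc
Over windows of 250 bases before to 50 after the start, 17 of 79 member promoters (21.5%) held the NRF1 letters, against 5.78% of all 35116 promoters in the table. The ETS letters were in 23 of 79 (29.1%), against 10.3% of all. Either one was in 36 of 79 (45.6%), against 14.9% of all, and a promoter can hold both. The NF-Y letters CCAATCAG were in 2 of 79 member promoters (2.53%) and 3.97% of all. The letters of the NF-kB motif were in 3 of 79 (3.80%) and 1.40% of all, so that share rests on 3 promoters. These 79 promoters belong to 66 of the 81 genes. A match describes the letters and says nothing of binding.

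After 6 h of IL-1, transcripts of the oxidative phosphorylation genes stood a little lower, and 1 of 81 passed the test. NDUFS3, a core subunit of complex I, fell by 0.61 ± 0.11 (SE) on the log2 scale, 1.53-fold (limma, Benjamini-Hochberg adjusted p = 0.0135). No member rose. Of all genes tested, 6.08% rose and 2.94% fell. At an unadjusted limma p under 0.05, 1 member was higher and 6 were lower, where 9.88% of all genes were higher and 12.3% lower, and no other tool was run. The median difference, IL-1 minus control, was -0.15 over the members and -0.11 over all genes. It was below 0 in 76 of 81 members (93.8%), against 65.4% of all genes, and below the all-gene median in 52 of 81 (64.2%). With array medians made equal in place of quantile normalization, the members' median was -0.06, which is 0.01 above that of all genes instead of 0.04 below. A lower place of the members than of other genes thus depended on the scaling. Separate cultures are not stated for the 3 samples of a group, and each p-value therefore reflects a spread between samples that could be technical. In bulk RNA, fewer cells with a transcript and less of it per cell cannot be told apart.

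The complexes had similar medians. They were -0.16 for complex I, -0.20 for complex II, -0.13 for complex III, -0.10 for complex IV and -0.17 for complex V. All 12 genes of complex IV and all 18 of complex V had a difference below 0, as did 32 of 35 of complex I, 6 of 7 of complex II and 8 of 9 of complex III. With array medians made equal, the medians were -0.07, -0.16, -0.05, -0.01 and -0.08 in the same order of complexes, and 23, 5, 7, 7 and 16 genes were below 0.

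**Figure D1:**
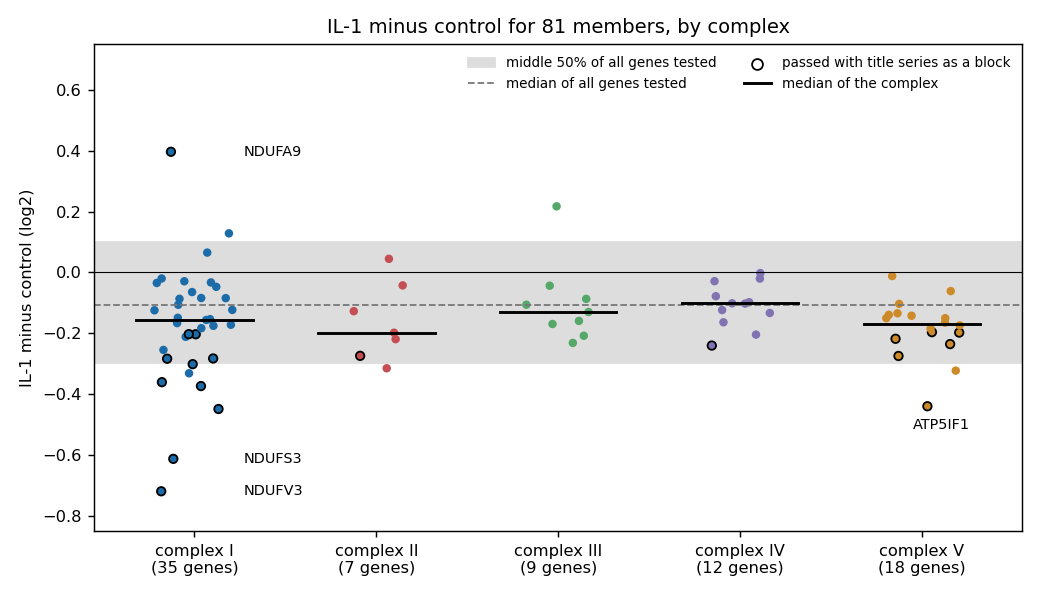
IL-1 minus control (log2 signal, vertical axis) for each of the 81 members, grouped by complex along the horizontal axis, with 1 point a gene, a bar at each complex's median, the median of all 9078 genes dashed and their middle 50% shaded. Most points lie between 0 and -0.30, NDUFV3 and NDUFS3 lie lowest and NDUFA9 highest; ringed points passed with title series as a block.

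The title series set much of the spread. Before normalization, NDUFS3 had signals of 1897 and 1389 on the control Allstars arrays and 5558 on the control Sample array. After it, 37 of 81 members still differed between Sample and Allstars arrays, 18 of them higher in Sample (limma adjusted p under 0.05, against 47.5% of all genes). In 46 of 81 members this difference was larger than that between IL-1 and control, as it was in 5243 of all 9078 genes. Each series holds both groups, so title series can be fitted as a block. The members' median residual SD was 0.163 without the block and 0.0870 with it. With the block, 1 member rose and 18 fell, where 13% of all genes rose and 22.2% fell, so the share of falls, 18 of 81, was near that of all genes. With the block and equal array medians, 1 rose and 7 fell, against 14.2% and 19% of all genes. Below, "with the block" refers to the fit with title series and "without the block" to the fit of all 6 arrays with treatment alone. Of the 18 falls with the block, 8 also passed in the Allstars arrays alone and 12 with array weights, both without a block. In those 2 fits 1534 and 1787 of all 9078 genes fell.

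In complex I, the entry point for NADH, the core subunits bind the cofactors and ubiquinone. NDUFS3 had log2 signals of 11.42, 11.47 and 11.51 in control samples 1 to 3 and 10.83, 10.78 and 10.95 in IL-1 samples 1 to 3, and all values below keep this order. The lowest control array lay 0.47 above the highest IL-1 array, more than the range within either group. NDUFS3 sits where ubiquinone is reduced, next to NDUFS7 and NDUFS8, which carry iron-sulfur clusters. NDUFS7 had 10.99, 11.01 and 10.88 in control and 10.85, 10.79 and 10.40 with IL-1, so the groups did not overlap, but the Sample array with IL-1 lay below the rest. NDUFS8 had 11.88, 11.81 and 11.55 against 11.68, 11.65 and 11.30, and its groups overlapped. Both passed with the block and not without it (adjusted p = 0.0164 and 0.0394, differences -0.28 and -0.20). The subunits that oxidise NADH gave no such values. NDUFV1, which binds the flavin, had 10.91, 10.97 and 10.59 in control and 10.77, 10.93 and 10.45 with IL-1. NDUFS1, which carries iron-sulfur clusters, had 6.65, 6.99 and 6.30 against 6.69, 6.43 and 6.33. NDUFV2 was higher with IL-1 by 0.13 ± 0.24 (SE). All 3 overlapped between groups, and none passed in either fit.

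Accessory subunits surround this core. NDUFA8, in the membrane arm, had 11.95, 11.91 and 12.16 in control and 11.54, 11.58 and 11.54 with IL-1. The groups were apart, and its adjusted p of 0.0508 without the block lay just over the threshold (4.16e-04 with it). NDUFA12, at the Q module, had 11.98, 12.01 and 12.16 against 11.62, 11.64 and 11.77, also apart (adjusted p = 0.0882 without and 7.90e-04 with the block). NDUFA9, which helps hold the membrane arm to the Q module, went the other way. It had 10.16, 10.02 and 10.42 in control and 10.71, 10.49 and 10.60 with IL-1. The groups were apart, with a difference of 0.40 ± 0.15 (SE), 0.51 within Allstars and 0.17 within Sample (adjusted p = 0.162 without and 0.00556 with the block). It was the 1 member whose 3 IL-1 arrays all lay above the control arrays, where 11% of all genes did so. Among NDUFA9, NDUFA12, NDUFV3, NDUFS4 and NDUFA7, the accessory subunits of the N and Q modules, differences thus ran from -0.72 to 0.40.

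NDUFV3, an accessory subunit of the module that oxidises NADH, had the lowest difference of the members, and also a dim signal. Its values were 7.08, 6.88 and 7.42 in control and 6.08, 6.36 and 6.79 with IL-1. It was detected on 3 control arrays and 2 IL-1 arrays. The difference of -0.72 ± 0.25 (SE) had an adjusted p of 0.138 without and 0.00589 with the block, and was -0.37 in the authors' deposited log2 values. The 16 accessory subunits of the membrane arm all had differences below 0, from -0.45 to -0.03. With the block, 5 of them passed: NDUFA8, NDUFB7, NDUFB10, NDUFC1 and NDUFB3. NDUFB7 had 11.50, 11.34 and 11.22 in control and 11.11, 11.17 and 10.69 with IL-1, apart only narrowly. NDUFB10 had 10.65, 10.32 and 10.81 against 10.16, 10.31 and 10.41, with overlap. NDUFC1 had 10.42, 10.68 and 10.59 against 10.23, 10.33 and 10.29, without overlap. NDUFB3 had 12.40, 12.59 and 12.67 against 12.32, 12.31 and 12.41, an overlap of 1 array. NDUFAB1, the acyl carrier protein that also serves lipoate synthesis, had 12.08, 11.90 and 12.20 against 11.83, 11.99 and 12.25 and differed by -0.03 ± 0.14 (SE).

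**Figure D2:**
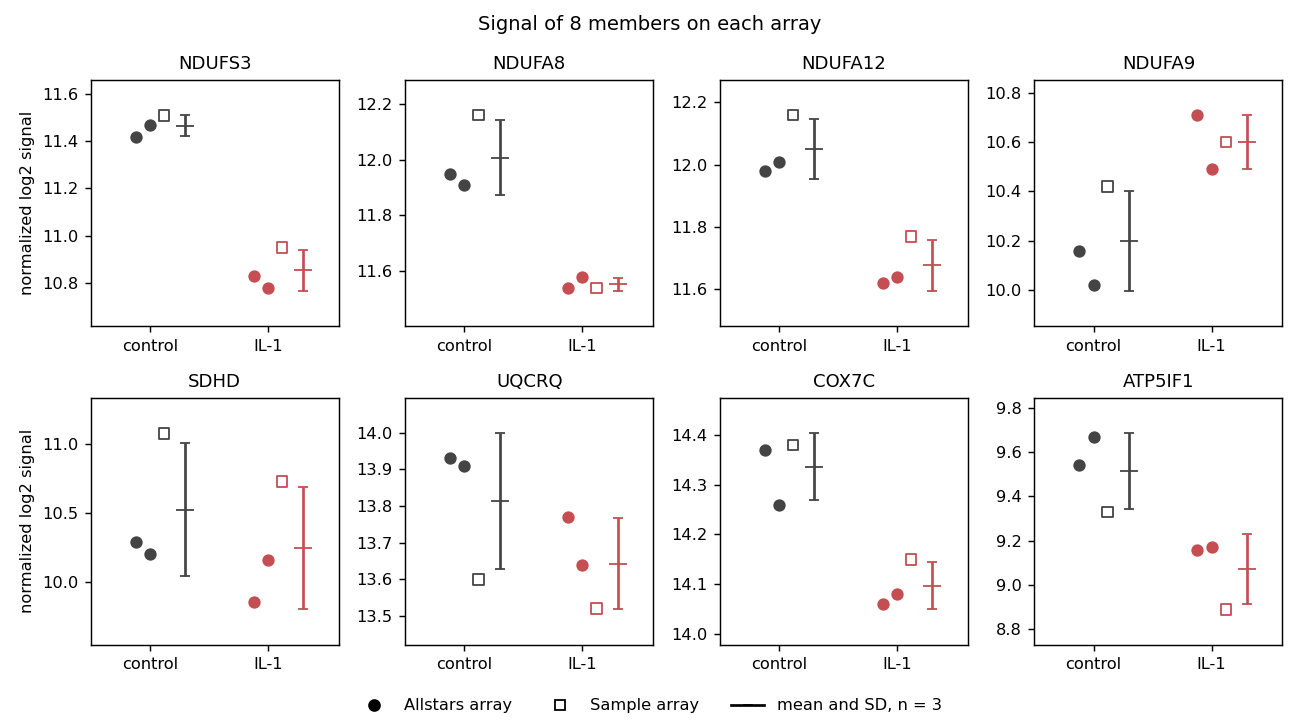
Normalized log2 signal (vertical axes, each with its own range and none starting at 0) of 8 members on the 3 control and 3 IL-1 arrays (horizontal axes). Filled circles are Allstars arrays, open squares are Sample arrays, and the cross with bars gives the mean and SD (n = 3). NDUFS3, NDUFA8, NDUFA12, COX7C and ATP5IF1 have all IL-1 arrays below all control arrays, NDUFA9 has them above, and in SDHD and UQCRQ the groups overlap.

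Complex II oxidises succinate and is also an enzyme of the tricarboxylic acid cycle. SDHA, its flavoprotein, had 9.57, 9.59 and 9.97 in control and 9.26, 9.37 and 9.84 with IL-1. The Sample arrays were higher in both groups, and the groups overlapped (-0.22 ± 0.20 SE). SDHC, a membrane anchor, had 9.78, 10.02 and 9.49 against 9.67, 9.73 and 9.28, with the Sample arrays lower. SDHD, the other anchor, had 10.29, 10.20 and 11.08 against 9.85, 10.16 and 10.73. Its Sample arrays lay 0.78 above the Allstars arrays, more than the -0.27 between IL-1 and control. SDHD alone of the complex passed, with the block and not without it (adjusted p = 0.0334). Without control replicate 3 and without the block its difference was 0.0055. The 3 differences were below 0 in both series.

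Complex III passes electrons from ubiquinol to cytochrome c. UQCRC1, a core protein, had 10.68, 10.54 and 10.85 in control and 10.44, 10.47 and 10.68 with IL-1. UQCRC2, the other core protein, had 9.17, 9.09 and 9.67 against 8.89, 8.94 and 9.40. UQCRQ, a small accessory subunit, had 13.93, 13.91 and 13.60 against 13.77, 13.64 and 13.52. In all 3 the groups overlapped and each series had lower values with IL-1. UQCRH was the 1 gene of the complex without overlap, with closest values of 13.61 in control and 13.60 with IL-1. UQCR11, a dim accessory subunit, was 0.22 ± 0.22 (SE) higher with IL-1. No gene of complex III passed in either fit by the probe that stands for it, while a dimmer UQCR10 probe passed with the block, as given below.

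Complex IV, cytochrome c oxidase, reduces oxygen, and several of its nuclear subunits have tissue isoforms. COX7C had 14.37, 14.26 and 14.38 in control and 14.06, 14.08 and 14.15 with IL-1. The groups were apart by 0.11, and COX7C was the 1 gene of the complex that passed with the block (-0.24 ± 0.08 SE, adjusted p = 0.139 without and 0.0108 with it). COX4I1, the common isoform of subunit 4, had 14.02, 14 and 13.67 against 13.96, 13.91 and 13.76, and its difference of -0.02 ± 0.12 (SE) changed sign with equal array medians and with the authors' deposited log2 values. COX6C had 12.94, 12.91 and 13.05 against 12.82, 12.85 and 12.83, apart by 0.06. COX6B1 had 13.68, 13.74 and 13.68 against 13.67, 13.54 and 13.61, apart by 0.02, and COX6A1 had 11.44, 11.35 and 11.19 against 11.45, 11.24 and 10.99, with overlap. These subunit 6 genes all had intervals that reached across 0. COX7A2, the common isoform of its subunit, had 13.67, 13.57 and 13.52 against 13.58, 13.53 and 13.56. COX7A1, the heart and muscle isoform, had 5.69, 6.23 and 7.28 against 5.77, 5.79 and 7.16 and was detected on 2 control arrays and 1 IL-1 array. COX6A2, the muscle isoform of its subunit, was not detected, nor were COX6B2 and COX8C, known from testis, or COX4I2, the isoform known for its rise in low oxygen. COX7B had 12.22, 12.08 and 12.57 against 12.12, 11.99 and 12.15, and COX7B2, also known from testis but detected on all 6 arrays, had 7.83, 7.94 and 7.23 against 8.28, 7.52 and 7.20. COX8A had 13.51, 13.39 and 13.09 against 13.32, 13.18 and 13.26, and it was lower within Allstars (-0.20) and higher within Sample (0.17). In all of these, from COX7A2 to COX8A, the groups overlapped.

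In complex V the F1 head makes ATP, the central stalk turns with the c ring, and the peripheral stalk holds the head still. ATP5F1A, the alpha subunit, had 13.58, 13.63 and 13.76 in control and 13.30, 13.37 and 13.64 with IL-1, with overlap through the Sample array. ATP5F1B, the beta subunit that carries the catalytic sites, had 14.19, 14.15 and 14.14 against 14.02, 14.04 and 13.83, without overlap. Their differences of -0.22 and -0.20 passed with the block and not without it (adjusted p = 0.0232 and 0.0352), and that of ATP5F1A also in the Allstars arrays alone and with array weights. The 2 central stalk genes, ATP5F1C and ATP5F1D, had -0.14 and -0.16 and did not pass. Of the 4 peripheral stalk genes only ATP5PD passed, with the block (13.29, 13.32 and 13.46 against 13.09, 13.15 and 13.25). ATP5MC1, ATP5MC2 and ATP5MC3 encode the same mature c subunit. ATP5MC2 had 12.36, 12.12 and 12.25 against 12.02, 11.93 and 12.08, apart by 0.04, and passed with the block (adjusted p = 0.0329), while ATP5MC1 and the dim ATP5MC3 differed by -0.01 ± 0.18 and -0.32 ± 0.31 (SE). ATP5MJ, a small membrane subunit, also passed with the block (9.91, 10.05 and 10.22 against 9.71, 9.79 and 9.85). Complex V had 9 of 18 genes with all IL-1 arrays below all control arrays. Over the 81 members there were 24 such genes, where 17.1% of all genes had this order.

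ATP5IF1 is not a subunit but an inhibitor, which keeps the ATP synthase from running backwards and spending ATP. It had 9.54, 9.67 and 9.33 in control and 9.16, 9.17 and 8.89 with IL-1. Each IL-1 array lay below each control array, and the difference was -0.44 within both series. The 1.36-fold lower level passed with the block and not without it (adjusted p = 0.00147 and 0.141). It also passed with the block and equal array medians (0.00234), in the Allstars arrays alone (0.0083) and with array weights (0.0079).

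The 10 assembly factors, which help build complexes I and II and then leave them, had a median of -0.17, and none passed in either fit by the probe that stands for the gene. NDUFAF4 had 8.57, 8.51 and 8.46 in control and 8.33, 8.22 and 8.24 with IL-1, and NDUFAF3 had 12.11, 12.16 and 12.16 against 12.07, 12.08 and 11.83. SDHAF4, which aids the flavoprotein of complex II, had 7.20, 7.25 and 7.52 against 7, 7.05 and 6.98. In these 3 the groups were apart. NDUFAF6 had 7.85, 7.59 and 8.61 against 7.37, 7.23 and 8.46, with the Sample array high in both groups. NDUFAF5 had 8.92, 8.35 and 9.18 against 8.59, 8.40 and 8.83, and NDUFAF7 had 8.62, 8.56 and 8.50 against 8.51, 8.27 and 8.34. NDUFAF1 had 8.09, 8.38 and 8.62 against 8.35, 8.37 and 8.56, and NDUFAF2 had 10.06, 10.19 and 10.35 against 9.97, 10.01 and 10.48. SDHAF1 had 8.51, 8.42 and 8.30 against 8.42, 8.38 and 8.04, and SDHAF3 had 9.39, 9.21 and 9.48 against 9.42, 9.21 and 9.59. In these 7 the groups overlapped.

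The members were also compared within each title series. The members' median was -0.13 within Allstars (2 arrays against 2) and -0.20 within Sample (1 against 1, with no test). In 42 members every IL-1 array lay below every control array of its own series, where 37% of all genes had this order, and in 1, NDUFA9, every IL-1 array lay above, where 18.5% did. The test of a different response between the series called 0 members and 0 of all genes (limma interaction, adjusted p under 0.05), and at an unadjusted p under 0.05 it gave 2 members, where 6.08% of all genes did. With equal array medians it called 12 of all genes and with the authors' log2 values 45, with 0 members among them. In these fits 8 and 7 members had an unadjusted p under 0.05. The share of all genes at that limit was not counted there, so these counts have no background to be read against. With 1 array a group in the Sample series, that test has little precision.

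**Figure D3:**
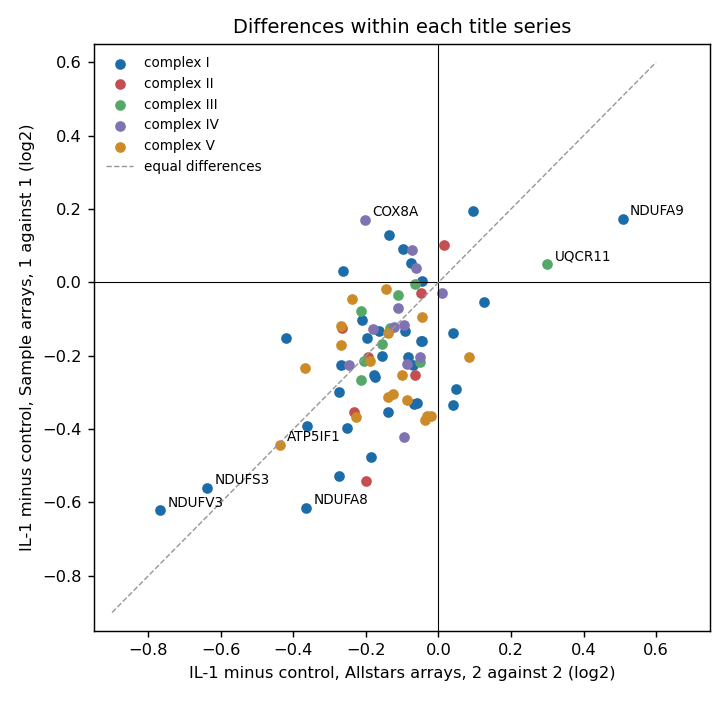
IL-1 minus control (log2) within the Allstars arrays (horizontal axis, 2 against 2) and within the Sample arrays (vertical axis, 1 against 1), with 1 point for each of the 81 members, coloured by complex, and equal differences dashed. NDUFS3, NDUFV3 and ATP5IF1 lie far to the lower left near the dashed line, NDUFA9 lies to the upper right, and COX8A has opposite signs.

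The intervals show how precisely these arrays placed each difference. As separate cultures are not stated, they may cover technical spread alone. They then do not bound an effect of IL-1 that was missed. Without the block, the 95% interval of the difference lay within 1.5-fold in both directions for 53 of 81 members, and with the block for 70, where 2627 and 5358 of all 9078 genes had such intervals. A difference over 1.5-fold was seen in 2 members, NDUFV3 and NDUFS3, and in 1429 of all genes. Both sizes depended on the processing. NDUFS3 was -0.51 with equal array medians, which is under 1.5-fold. NDUFV3 was also under it, at -0.39 without background correction and -0.37 with the authors' log2 values. For COX4I1 the interval without the block ran from -0.30 to 0.26, and for COX7A2 from -0.23 to 0.18. SDHD had the wider interval of -0.96 to 0.41. The 3 arrays a group limit this precision.

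**Figure D4:**
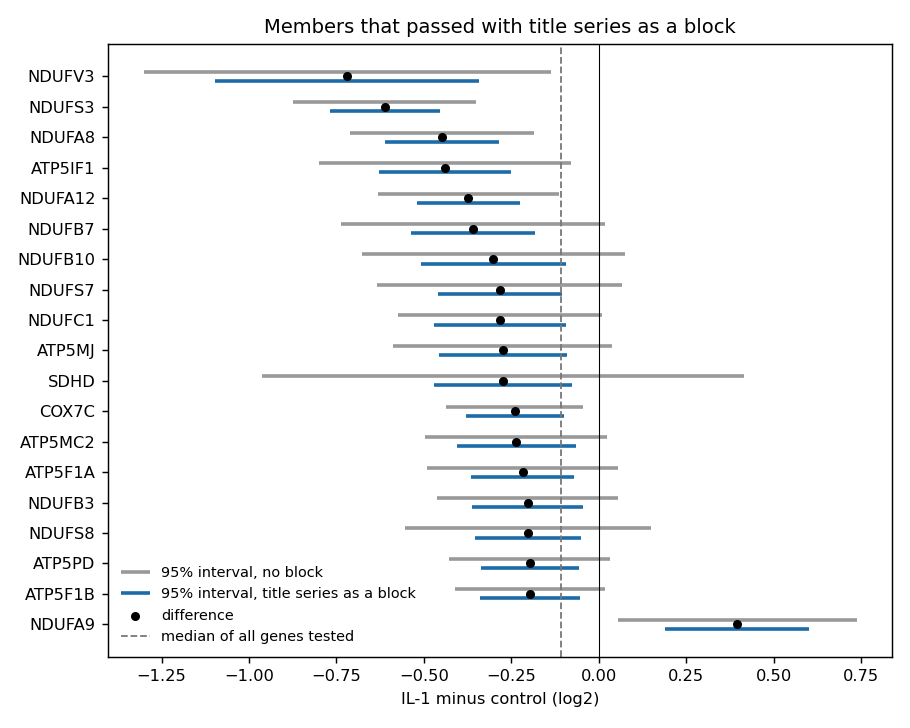
IL-1 minus control (log2, horizontal axis) of the 19 members that passed with title series as a block, with 95% intervals without the block in grey and with it in blue, and the median of all genes tested dashed. The block narrows each interval and leaves the difference in place; NDUFV3, NDUFS3, NDUFA8 and NDUFA12 lie left of the dashed line in full under both.

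NDUFS3 was lost in several settings. Its adjusted p without control replicate 1, control replicate 2, IL-1 replicate 1 and IL-1 replicate 2, each in turn, was 0.0641, 0.0728, 0.0757 and 0.0701, and with the authors' deposited log2 values it was 0.0606. Its difference lay between -0.66 and -0.57 over the fits that left out 1 array. No other member passed without the block when an array was left out. Of the 19 members that passed with the block, 7 did so in all 6 fits with the block that left out 1 array: NDUFS3, NDUFV3, NDUFA8, NDUFA12, NDUFB7, NDUFA9 and ATP5IF1. The same 7 passed with the block and equal array medians, and so did the assembly factor NDUFAF6.

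Some probes cannot be tied to 1 gene with certainty. UQCRHL is a near copy of UQCRH, and SDHAP1, UQCRBP1 and ATP5F1EP2 are pseudogenes of SDHA, UQCRB and ATP5F1E, so their signals may come from the parent genes. The 3 pseudogenes differed by -0.04, -0.21 and -0.06, and none passed. UQCRBP1 had 11.61, 11.43 and 11.91 in control and 11.23, 11.40 and 11.69 with IL-1, with overlap. SDHAP1 stood 1.09 lower on the Sample than on the Allstars arrays. Of 25 members with more than 1 kept probe, the probes disagreed in sign in 4: ATP5MG, ATP5PF, SDHAF3 and SDHAP1. Where all kept probes were tested, NDUFAF5 and UQCR10 each had a dimmer probe that passed with the block while the one that stands for the gene did not. A second NDUFAF5 probe gave -0.60, beside -0.21 (adjusted p = 0.00562 with the block), and 1 of the other UQCR10 probes gave -0.32, beside -0.11 (adjusted p = 0.0241). The other way round, the second probes of ATP5IF1 (-0.50, beside -0.44), ATP5MC2 (-0.44, beside -0.24) and ATP5PD (-0.09, beside -0.20) did not pass with the block (adjusted p = 0.182, 0.189 and 0.326). NDUFAF7 had probes at -0.63 and -0.33, beside -0.18, none of which passed.

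Other genes of mitochondrial respiration were set beside the members. Of 31 further assembly factors tested, 1 rose and 0 fell without the block, where 6.08% of all genes rose and 2.94% fell. With the block 1 rose and 13 fell, where 13% of all genes rose and 22.2% fell. Most of this list lay lower with IL-1: 26 of 31 differences were below 0, and the median was -0.23, against -0.11 for all genes. The 1 that rose in both fits was SCO2. SCO2, which delivers copper to cytochrome c oxidase, had 9.07, 9.05 and 9.22 in control and 10.42, 10.46 and 10.11 with IL-1. It rose 2.32-fold (1.22 ± 0.15 SE, adjusted p = 0.00173), and its adjusted p was at most 0.0156 when any 1 array was left out. SCO2 overlaps TYMP, the thymidine phosphorylase gene, on chromosome 22, and TYMP rose too, by 0.88 on the log2 scale (adjusted p = 0.0103, and up to 0.0598 with 1 array left out). Whether the 2 probes share a source was not tested.

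Of 17 genes of mitochondrial biogenesis, 0 rose and 1 fell without the block, where 6.08% of all genes rose and 2.94% fell. PPARGC1B, a coactivator that drives such genes, had 6.24, 6.65 and 6.09 in control and 4.85, 4.96 and 5.01 with IL-1, where it was detected on 0 of 3 arrays. It fell at least 1.17-fold (adjusted p = 0.0148, and up to 0.0944 with 1 array left out), a bound set by the lowest signal above background on each IL-1 array. Its relatives passed with the block and not without it. PPARGC1A had 8.83, 8.65 and 8.50 against 8.27, 8.17 and 8.09 (-0.48, adjusted p = 0.00263), and ESRRA, the nuclear receptor that both coactivate, had 8.65, 8.40 and 8.52 against 7.86, 8 and 8.08 (-0.55, adjusted p = 0.00181). With the block 2 genes of the list rose and 3 fell, where 13% of all genes rose and 22.2% fell. Those that rose were TWNK (0.68, adjusted p = 0.0406) and PPARD (0.51, adjusted p = 0.0381), and neither passed without the block. TWNK was higher within Allstars (1.11) and lower within Sample (-0.18). Over the 17 genes the median was -0.10, against -0.11 for all genes, so the list as a whole lay no lower. Of 13 further genes of the tricarboxylic acid cycle, 0 passed without the block, and 0 rose and 3 fell with it. The median was -0.17. Of 4 other subunits or partners tested, cytochrome c1 (CYC1) alone passed, with the block, with 11.50, 11.53 and 11.87 against 11.18, 11.30 and 11.51. None of the 26 transcripts of mitochondrial DNA listed had a named probe.

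The ribosomal proteins give a scale for abundant transcripts. Of 71 cytosolic ribosomal protein genes 1 rose and 8 fell with the block, with a median of -0.06. Of 75 mitochondrial ribosomal protein genes 3 rose and 29 fell with the block, with a median of -0.18. Of all genes 13% rose and 22.2% fell. The members' share of falls, 18 of 81, and their median of -0.15 lay between those of the 2 lists. The lists were not tested against each other.

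Some members start close to another gene. Of the 66 members with a promoter in the table, 27 had a neighbour that starts within 1000 bases on the opposite strand. Of those neighbours 18 were tested. Their members all lay below 0, and 14 of the 18 had the same sign, where 65.4% of all genes lay below 0. Without the block 0 of the 18 passed, where 6.08% of all genes rose and 2.94% fell. With it 3 fell (DALRD3, RBM10 and CCDC127), where 13% of all genes rose and 22.2% fell. KBTBD4, whose start lies 104 bases from that of NDUFS3, differed by -0.18 ± 0.15 (SE) and passed in neither fit (adjusted p = 0.567 without and 0.222 with the block). Of 18 members that passed with the block and had a promoter in the table, 9 held the NRF1 or ETS letters, and 35 of all 66 members in the table did.

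Across the arrays, between 11954 and 13357 probes were detected, and median signals ran from 60.3 to 95.3. The chondrocyte markers SOX9, COL11A1 and HAPLN1 were detected and 7 of 10 were not, COL2A1 and ACAN among them. Of 6 leukocyte markers CD68 and CSF1R were detected and PTPRC was not, and 0 endothelial, epithelial or skeletal muscle markers reached 3 arrays.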

How the data were processed

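Total RNA of SW1353 cells was labelled with biotin and hybridised to Illumina bead arrays, 1 for each of 3 control and 3 IL-1 samples, per the labels. The authors deposited 1 table with the intensity of 48784 probes, and its header names no normalization. A detection p-value stands beside each signal, per the file headers. A second deposited table gives the authors' own log2 values. The submitters' processing notes name lumi without settings.

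Background correction and quantile normalization used neqc (limma 3.58.1, R 4.3.3, offset 16). Probes were kept where the detection p was under 0.01 on 3 or more arrays (13017). Genes were named from GEO's platform annotation, where 28085 probes had 1 gene, 13 several and 20686 none. The probe with the highest mean stood for its gene (9078 genes). Differences are log2 IL-1 minus control from lmFit and eBayes with a trend. Tests were two-sided, p-values were adjusted by Benjamini-Hochberg across the 9078 genes, and the threshold was 0.05. Groups came from the labels, and the design had no block, as none is stated. Title series as a block, the series apart, other background, scaling, filter, probe and variance choices, array weights, the authors' log2 values and leaving out each array were alternatives. No set was tested. No pair of arrays was identical, and the script was tested on simulated data.

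The members, gene lists and tests were chosen with earlier results of these data known. Array values are given for the called members and the 3 with the smallest p of each complex, and for a fixed list of catalytic subunits, isoforms and assembly factors, 47 tested genes in all, among them those that passed with the block, added after their values were seen. From other lists up to 3 called genes are named. TYMP, PPARGC1A, ESRRA, TWNK, PPARD and CYC1 were added after their values were seen. Promoters and their neighbours came from RefSeq's table for GRCh38.p14.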

Additional observations from a re-analysis of the deposited data

How the results depend on the processing

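As reported, without a block, 0 members rose and 1 fell, and 2 fell without background correction and 0 with the authors' deposited log2 values. Of all 9078 genes, 267, 279 and 170 fell in these fits. The title series block gave 1 rise and 18 falls, and so it did without background correction, where 2015 and 2041 of all genes fell. With the block, the authors' values gave 1 and 17 and equal array medians 1 and 7, where 2126 and 1727 of all genes fell. The Allstars arrays alone gave 1 and 8, where 1048 of all 9078 genes rose and 1534 fell. Array weights gave 1 and 12, where 1154 of all genes rose and 1787 fell. Leaving out each array gave 0 to 1 rises and 0 to 15 falls, the higher ones with the block. Of all genes, 350 to 1078 rose and 67 to 1739 fell in those fits. The replicate block (Allstars 1, Allstars 2 and the Sample pair) gave 1 rise and 19 falls, where 1214 of all genes rose and 2109 fell. The deviations of same-numbered Allstars samples correlated at 0.08 over genes. No pairing by number is stated, and this value alone cannot decide it. The members' median stayed below 0 in all settings, from -0.20 in the Sample arrays to -0.06 with equal medians, and its distance to all genes ran from -0.10 in the Sample arrays to 0.01 with equal medians.

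NDUFS3 kept its sign in all settings and missed the threshold in 5. The 47 members named changed sign in 71 of their refits, 0 of them past the threshold, and the cause was not tested. With equal array medians, with or without the title series block, COX4I1 was 0.108, COX6A1 0.0151, COX6B1 0.0034, COX7A2 0.0716, COX8A 0.0274, NDUFAB1 0.0792 and NDUFAF2 0.0330. With the authors' values, with or without the block, COX4I1 was 0.0351, NDUFAB1 0.0071, SDHAF3 -0.0122 and NDUFAF1 -0.0032. In the Sample arrays alone COX4I1 was 0.0871, COX7A2 0.0391, COX8A 0.17, NDUFS1 0.0299, NDUFAB1 0.0540, NDUFAF1 -0.0535 and NDUFAF2 0.13, and in the Allstars arrays COX7B2 was 0.0111. Without background correction, with or without the block, COX7B2 was 0.0073. With array weights COX6A1 was 3.80e-04 and COX7B2 0.25. When 1 array was left out, differences ran from -0.31 to 0.23 for COX7B2, -0.13 to 0.0427 for COX4I1, -0.0625 to 0.0120 for COX7A2 and -0.20 to 0.0128 for COX8A. They ran from -0.34 to 0.0064 for NDUFS1, -0.15 to 0.0639 for NDUFAB1, -0.0706 to 0.19 for NDUFAF1 and -0.21 to 0.0452 for NDUFAF2. They ran from -0.21 to 0.0176 for COX6A1, -0.0442 to 0.14 for SDHAF3, -0.51 to 0.0055 for SDHD, -0.62 to 0.28 for COX7A1 and -0.23 to 0.0270 for NDUFV1. Signal over background limits the dim probes most: NDUFV3, ATP5MC3 and COX7A1 were not detected on every array.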
